A study of Bos taurus with 8 samples.

Results

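The cells described here were B cells of bovine blood that carried at least 2 unique molecular identifiers (UMIs, each a counted RNA molecule) of CD83, called CD83-high B cells below. A barcode with 200 to 3000 detected genes was taken as a B cell where it had at least 1 UMI of MS4A1, at least 2 UMIs of CD79A and CD79B together, and no UMI of CD3E or CD14. By this rule 4276 of 30756 barcodes were B cells, 1734 of them CD83-high and 2542 with 0 or 1 CD83 UMI. The cells were chosen by their own CD83 UMIs, so the CD83 level, the share and every gene ratio between the classes are a description, given with no test.

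The study followed the response of blood mononuclear cells to lipopolysaccharide (LPS), a cell wall component of Gram-negative bacteria, by droplet-based single-cell RNA sequencing and, in libraries not used here, single-cell chromatin accessibility. Whole blood of 4 female, lactating Holstein cattle aged 2 years was pooled and divided into 4 parts, and mononuclear cells were isolated after the treatment. 1 part received no LPS, and the others were kept with LPS (2 µg/ml) until 2 h, 4 h or 8 h had passed. The time for which the part without LPS was kept is not given in the sources used here. Each treatment had 1 RNA library from this single pool, so animals cannot be told apart within a library, a difference between libraries cannot be told apart from a difference between treatments, and no test between times was possible.

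CD83 is a membrane protein of the immunoglobulin superfamily that B cells and dendritic cells place on their surface soon after stimulation, and it serves as an activation marker. B cells are stimulated through the antigen receptor (signal chains CD79A and CD79B), through CD40, which receives help from T cells, and through Toll-like receptors, and these routes meet at the NF-kB transcription factors. Known NF-kB targets include CD83, the survival factor BCL2A1 and the inhibitor TNFAIP3.

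The libraries without LPS and after 2 h, 4 h and 8 h held 8490, 10429, 7977 and 3860 barcodes, with a median of 4179 to 5029 UMIs per barcode. The 8 h library was the smallest, with 30902952 UMIs against 56453080 to 63770426 in the other libraries. Across libraries 93 barcodes occurred more than once, among them 11 CD83-high barcodes, but no barcode was CD83-high in more than 1 library. B cells made up 15.6%, 16.4%, 14.5% and 10.1% of the barcodes within the gene limits without LPS and after 2 h, 4 h and 8 h.

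The share of CD83-high cells among the B cells was lowest without LPS and highest after 2 h. It was 12.7% without LPS (156 of 1229 cells, exact 95% binomial interval 10.9 to 14.7%), 57.0% after 2 h (924 of 1622 cells, 54.5 to 59.4%), 48.2% after 4 h (520 of 1078 cells, 45.2 to 51.3%) and 38.6% after 8 h (134 of 347 cells, 33.5 to 44.0%). None of the 4 intervals overlapped, although the intervals cover counting error only and not the spread between animals or preparations. As a background, among cells with at least 1 UMI of CD3E and none of MS4A1, CD79A, CD79B or CD14, the share with at least 2 CD83 UMIs was 0.340%, 1.53%, 1.88% and 1.28% in the same order, at a median of 4070, 4084.5, 4760 and 5250 UMIs per cell against 4095, 4369.5, 4822 and 6295 in the B cells. These background shares were far below the B cell shares in every library, but they too were lowest without LPS. Among the CD14-gated barcodes described at the end, the share without LPS was 12.9%, close to that of the B cells, at a median of 9859 UMIs.

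Because the 8 h B cells were sequenced more deeply per cell, the shares were also taken after thinning each cell to 2000 UMIs. Cells under 2000 UMIs were left out, which removed 37, 38, 9 and 10 B cells. The thinned shares were 6.63% (5.28 to 8.19%), 41.9% (39.4 to 44.3%), 29.2% (26.5 to 32.0%) and 14.2% (10.7 to 18.4%) without LPS and after 2 h, 4 h and 8 h. The order of the libraries was the same as in unthinned cells, but the distance of 8 h from no LPS was smaller.

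**Figure D1:**
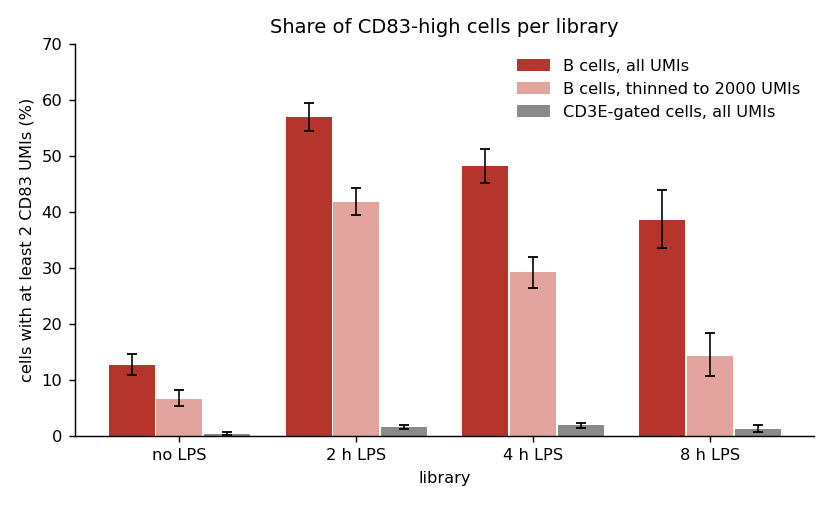
Percent of cells with at least 2 CD83 UMIs in each library, for all gated B cells (dark red), for B cells thinned to 2000 UMIs (light red) and for CD3E-gated cells (grey); error bars are exact 95% binomial intervals. The unthinned B cell share runs from 12.7% without LPS to 57.0% after 2 h and 38.6% after 8 h, and the CD3E-gated share stays below 2% in the 4 libraries.

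The number of CD83 UMIs in each cell changed along with the share. The median over the CD83-high cells was 3 UMIs without LPS, 7 after 2 h, 5 after 4 h and 3 after 8 h, with maxima of 32, 57, 33 and 23. At least 10 UMIs were counted in 12 cells without LPS, 345 after 2 h, 100 after 4 h and 12 after 8 h, which is 7.69%, 37.3%, 19.2% and 8.96% of the CD83-high cells. The cells after 8 h therefore had about as few CD83 UMIs each as those without LPS, although their share was larger. These counts were taken at unlike median depth, 7882.5 UMIs per CD83-high cell after 8 h against 4790 without LPS.

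Summed over the class, CD83 stood at 743 CPM (UMIs scaled to a common class total, the unit of every level below) without LPS, 1747 after 2 h, 1009 after 4 h and 605 after 8 h. Just inside the threshold, at 2 UMIs, there were 57, 133, 93 and 36 cells in these libraries, and just outside it, at 1 UMI, there were 187, 191, 170 and 57. The median depth of the cells just inside was 4172, 3592, 4398 and 6337.5 UMIs, and that of the cells just outside was 4213, 3833, 4186 and 5657. The 2 groups beside the threshold thus had similar depth, whereas cells with at least 10 CD83 UMIs had medians of 9234, 6513, 8780.5 and 10672 UMIs.

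**Figure D2:**
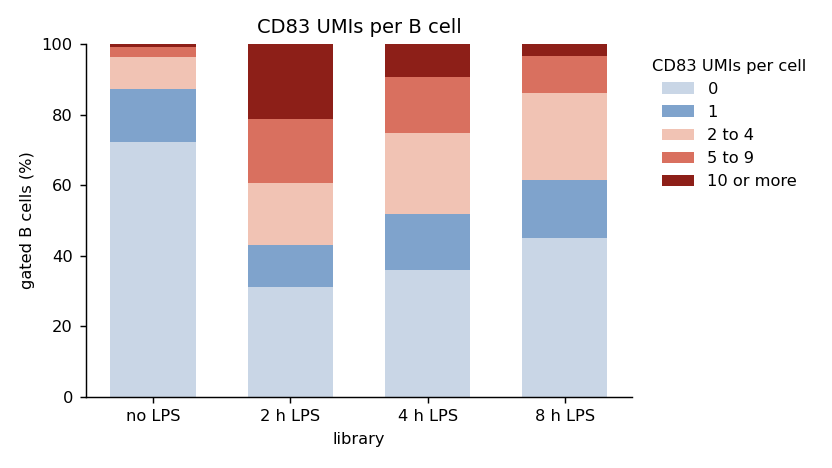
Stacked bars of the percent of gated B cells with 0, 1, 2 to 4, 5 to 9, or 10 or more CD83 UMIs in each library. The class with 10 or more UMIs is widest after 2 h (345 cells) and holds 12 cells both without LPS and after 8 h.

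CD83-high cells had a higher median depth than B cells with 0 or 1 CD83 UMI, called the other B cells below. It was 4790 against 4026 UMIs without LPS, 4977.5 against 3938 after 2 h, 5575.5 against 4486.5 after 4 h and 7882.5 against 5585 after 8 h. Ribosomal protein genes took 41.5%, 37.8%, 38.9% and 41.5% of their UMIs against 37.1%, 33.5%, 34.9% and 36.9%. Since depth raises the chance of 2 CD83 UMIs, each ratio below was also computed against cells with 0 or 1 CD83 UMI that were weighted to the same depth.

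Markers of other blood cells were sparse in the CD83-high cells. The dendritic cell genes CLEC9A, XCR1, FCER1A and CD1E had no UMI in any of the 4 libraries, and FLT3 had none without LPS and after 8 h. The summed level of the 7 dendritic cell markers nevertheless ran from 327 to 559 CPM in CD83-high cells and from 251 to 264 CPM in the other B cells. In CD83-high cells that sum was CCR7, a chemokine receptor that B cells also express, BATF3 and a remainder of FLT3.

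The 10 T cell markers summed to 36.9 to 50.9 CPM in CD83-high cells and 54.5 to 79.2 CPM in the other B cells, with CD3G at 0 in the 4 CD83-high sums. The 12 monocyte markers summed to 64.9 to 218 CPM in CD83-high cells, with CSF1R at 0 in 3 of 4 libraries, and to 47.0 to 1160 CPM in the other B cells. The CD83-high sum was the higher after 2 h (218 against 95.1 CPM) and 4 h (64.9 against 47.0 CPM). It was the lower without LPS (210 against 1160 CPM) and after 8 h (160 against 238 CPM). Most of the CD83-high sum after 2 h was CCL2, and most of those CCL2 UMIs came from a single cell. The highest of these sums belonged to the other B cells without LPS, in which S100A8, S100A9 and S100A12, calcium-binding proteins of myeloid cells, stood at 227, 321 and 383 CPM. A single cell gave 50.6% of those S100A8 UMIs. The sums of the 8 NK cell markers were 34.5 to 119 CPM in CD83-high cells and 31.4 to 102 CPM in the other B cells, those of the 4 measured gamma-delta T cell markers were at most 1.69 CPM in either class, and those of the 4 measured platelet and red cell markers were 10.1 to 32.0 and 27.3 to 44.0 CPM. The NK cell sum was the higher in CD83-high cells in each library, at 117 against 66.5 CPM after 2 h and 119 against 102 CPM after 4 h. The classes were close without LPS (34.7 against 33.9 CPM) and after 8 h (34.5 against 31.4 CPM). The NK cell markers include CCL5, which in CD83-high cells was at least 2-fold higher after 2 h than without LPS. The part of admixed RNA in the gene ratios was not tested.

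The markers given for these cells were compared between the classes. They were chosen with earlier results of these data known, so their levels are no check of the label as activated B cells. MS4A1, part of the gate, had a median of 4 to 5 UMIs per cell. BCL2A1, CD40, CXCR5 and CR2 were higher in CD83-high cells in the 4 libraries, while the classical costimulatory ligands CD80 and CD86, which B cells display to T cells, were not. CD86 stood at 8.67, 9.22, 7.15 and 6.36 CPM in CD83-high cells without LPS and after 2 h, 4 h and 8 h, against 11.5, 12.7, 12.2 and 9.70 CPM in the other B cells. CD80 stood at 7.58, 8.66, 5.36 and 3.64 CPM against 6.42, 8.08, 6.24 and 6.72 CPM. Each ratio of these 2 genes had an interval that included 1, at sums of 4 to 59 UMIs per library and class.

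Between the classes, 36 of 6655 genes (0.541%) were at least 1.5-fold higher in CD83-high cells in every library and 231 (3.47%) at least 1.5-fold lower, on the scale log2 of CPM + 10. The genes of the gate were left out, and a gene needed 200 UMIs over the 8 sums. Of the markers given for these cells and not part of the gate, BCL2A1, CD40, CXCR5 and CR2 were all on the higher side. Against depth-matched cells the counts were 31 (0.466%) and 182 (2.73%), of which 21 and 166 were shared with the unmatched calls. Scaling by TMM gave 78 and 152 genes, so that 33.9% of the calls were higher, and scaling by DESeq2 size factors gave 77 and 157 (32.9% higher), against 13.5% in CPM. Both scalings moved the median gene by 0.11 on the log2 scale, from -0.12, and the 36 genes were called under both. Without the 8 h library, the smallest, the counts over the other libraries were 92 and 309.

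BCL2A1, a BCL2-family protein that protects activated lymphocytes from cell death, showed the widest separation among the higher genes. Its mean log2 ratio was 2.15 ± 0.64 (SD over 4 libraries). The libraries differ in treatment, so here and below this SD is not a spread between replicates. BCL2A1 stood at 512 CPM without LPS, 3091 after 2 h, 1307 after 4 h and 551 after 8 h in CD83-high cells. In the other B cells it stood at 131, 372, 281 and 186 CPM. The ratios were 3.91 (exact 95% interval 3.47 to 4.40), 8.31 (7.83 to 8.82), 4.65 (4.32 to 5.01) and 2.96 (2.553 to 3.45), and 3.73, 7.90, 4.43 and 2.64 after depth matching. BCL2A1 was thus higher in CD83-high cells in the part without LPS as well as in those with it, most of all at 2 h.

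CD40, the receptor for T cell help, stood at 135, 625, 331 and 169 CPM in CD83-high cells without LPS and after 2 h, 4 h and 8 h, against 61.7, 209, 141 and 80.6 CPM in the other B cells. The ratios were 2.19 (1.77 to 2.71), 2.997 (2.76 to 3.26), 2.36 (2.11 to 2.64) and 2.10 (1.65 to 2.68). Both classes had their highest CD40 level after 2 h, when the other B cells exceeded the CD83-high cells of the libraries without LPS and after 8 h.

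CXCR5, the chemokine receptor that guides B cells into lymphoid follicles, stood at 159, 346, 241 and 173 CPM in CD83-high cells. In the other B cells its level was 54.3, 61.5, 74.2 and 85.1 CPM, lowest without LPS and highest after 8 h. The ratios of 2.93 (2.38 to 3.59), 5.63 (4.86 to 6.55), 3.25 (2.80 to 3.78) and 2.03 (1.60 to 2.58) were therefore widest after 2 h and narrowest after 8 h.

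CR2 encodes complement receptor 2, which couples complement-coated antigen to the B cell receptor. It stood at 38.997, 120.1, 112 and 49.9965 CPM in CD83-high cells and 14.99, 25.8, 34.8 and 23.1 CPM in the other B cells. The ratios were 2.60 (1.70 to 3.91), 4.66 (3.70 to 5.92), 3.22 (2.59 to 4.03) and 2.16 (1.37 to 3.47), and they were 3.05, 4.70, 3.44 and 2.45 after depth matching.

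**Figure D3:**
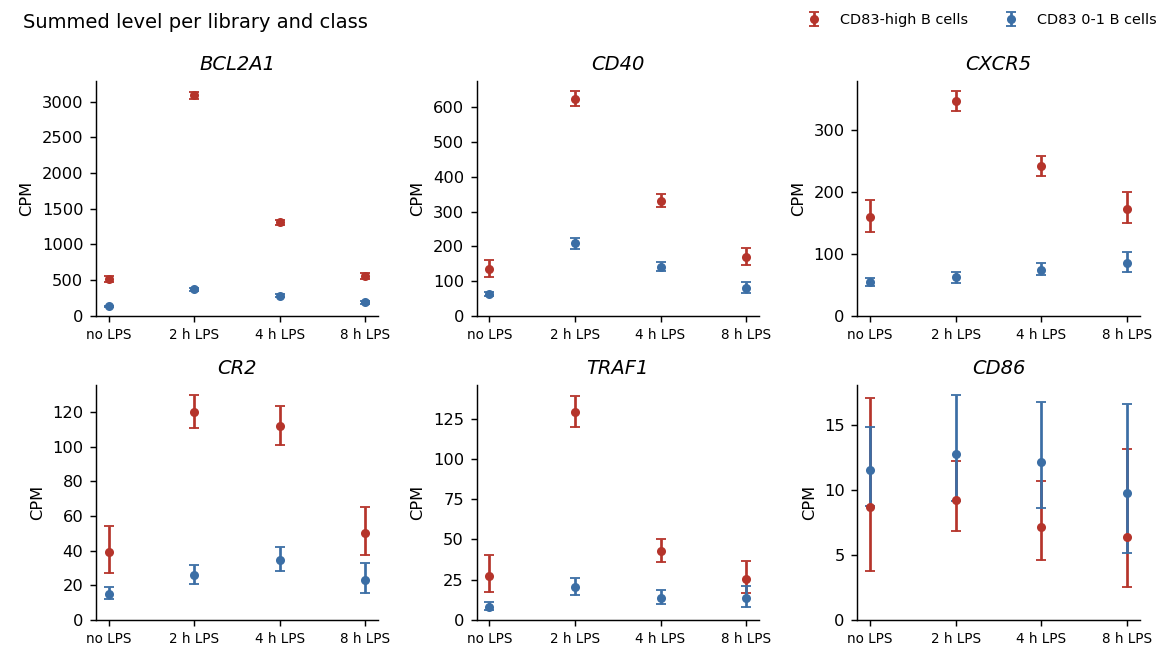
Summed level in CPM of BCL2A1, CD40, CXCR5, CR2, TRAF1 and CD86 in each library for CD83-high B cells (red) and B cells with 0 or 1 CD83 UMI (blue); error bars are exact 95% Poisson intervals. The first 5 genes lie higher in CD83-high cells in each library and peak there after 2 h, whereas the CD86 intervals of the classes overlap.

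The other genes among the 10 with the highest mean ratio were PKIG, MARCKS, GADD45B, KDM6B, TRAF1 and TNIP2. PKIG, an inhibitor of protein kinase A, stood at 208, 236, 346 and 145 CPM in CD83-high cells against 52.6, 42.6, 84.1 and 56.7 CPM. Unlike the markers above it was highest after 4 h, and its ratios of 3.96, 5.55, 4.11 and 2.548 became 5.79, 7.37, 5.26 and 3.07 after depth matching. MARCKS, an actin-binding substrate of protein kinase C, stood at 76.9, 393, 245 and 85.4 CPM against 19.7, 98.8, 75.9 and 39.6 CPM.

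GADD45B, a stress-inducible signalling adaptor, had ratios of 3.47, 3.70, 2.71 and 2.35, and KDM6B, a histone H3 lysine demethylase induced in inflammation, had ratios of 3.27, 4.18, 2.97 and 2.56. TRAF1, an adaptor of TNF-family receptors, stood at 27.1, 129, 42.9 and 25.5 CPM against 8.18, 20.2, 13.5 and 13.4 CPM. Its ratio of 1.89 after 8 h had an interval of 1.012 to 3.64, the closest of the 10 genes to equality. TNIP2, an inhibitor of NF-kB signalling, had ratios of 2.20, 3.04, 2.17 and 1.98. All 10 genes kept their call against depth-matched cells.

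Genes named next were chosen after their values were seen. Among the 36 were REL, an NF-kB subunit, at 273, 325, 254 and 205 CPM against 120, 148, 138 and 116 CPM, and ZFP36L1, an RNA-binding protein that promotes mRNA decay, at 483, 967, 666 and 487 CPM against 266, 392, 347 and 291 CPM. MSMO1 and IDI1, enzymes of sterol and isoprenoid synthesis, had mean log2 ratios of 0.84 ± 0.11 and 0.92 ± 0.17 (SD over 4 libraries). The nucleolar proteins NPM3 and MRTO4 had mean log2 ratios of 1.02 ± 0.26 and 0.78 ± 0.12, and the chaperone HSP90AB1 had 0.80 ± 0.15. HSP90AB1 passed in unmatched cells only, while REL, ZFP36L1, MSMO1, IDI1, NPM3 and MRTO4 passed in both.

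On the lower side, HOPX, a small homeodomain protein without DNA binding, stood at 27.1, 25.4, 9.83 and 8.18 CPM in CD83-high cells without LPS and after 2 h, 4 h and 8 h. In the other B cells it stood at 141, 174, 123 and 91.1 CPM. These ratios, 0.192 (0.123 to 0.285), 0.146 (0.120 to 0.177), 0.0800 (0.0543 to 0.114) and 0.0898 (0.0401 to 0.176), were the smallest among the named lower genes with a symbol on average, with a mean log2 ratio of -2.41 ± 0.30.

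CMTM3, a membrane protein of the chemokine-like factor family, stood at 112, 155, 101 and 132 CPM against 575, 666, 490 and 458 CPM, and AHNAK, a giant scaffold protein, at 56.3, 79.8, 36.6 and 27.3 CPM against 244, 281, 161 and 172 CPM. LITAF, a protein of late endosomes and lysosomes, stood at 3.25, 10.9, 5.06 and 6.36 CPM against 50.8, 55.0, 50.6 and 40.3 CPM. KCNN4, a calcium-activated potassium channel, stood at 17.3, 6.78, 3.87 and 9.09 CPM against 70.1, 69.6, 42.7 and 44.8 CPM. ARHGEF10L, a guanine nucleotide exchange factor, had ratios of 0.105, 0.283, 0.135 and 0.112. In each of these genes every CD83-high level was below every level of the other B cells, and each kept its call after depth matching.

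4 of the 10 lowest genes had no symbol in the tables. In ENSBTAG00000048135, 94.0% of the UMIs of the other B cells without LPS and 97.8% of those after 4 h came from a single cell, and its mean log2 ratio of -3.22 became -1.47 without the top cell of each sum and -0.39 without the upper limit on genes. ENSBTAG00000048353 had no such cell, with at most 9.09% of the UMIs of the other B cells from 1 cell, and a mean log2 ratio of -1.99 ± 0.12. Left out of every sum in turn, the cell with the most UMIs of each gene changed the counts to 33 higher and 265 lower genes, of which 30 and 227 were shared with the calls above.

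Further lower genes, again chosen after their values were seen, were TBX21, which encodes the transcription factor T-bet, at 5.42, 7.53, 7.15 and 10.0 CPM against 32.3, 41.95, 22.99 and 38.8 CPM, and ZBTB32, a transcriptional repressor of activated lymphocytes, at 60.7, 69.3, 33.1 and 39.1 CPM against 165, 192, 116 and 103 CPM. The intermediate filament gene VIM stood at 118, 111, 64.6 and 56.4 CPM against 362, 335, 230 and 145 CPM. The integrin chain ITGB2 stood at 31.4, 30.7, 21.2 and 36.4 CPM against 132, 128, 78.5 and 93.3 CPM. These 4 genes were lower in CD83-high cells in every library and after depth matching.

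**Figure D4:**
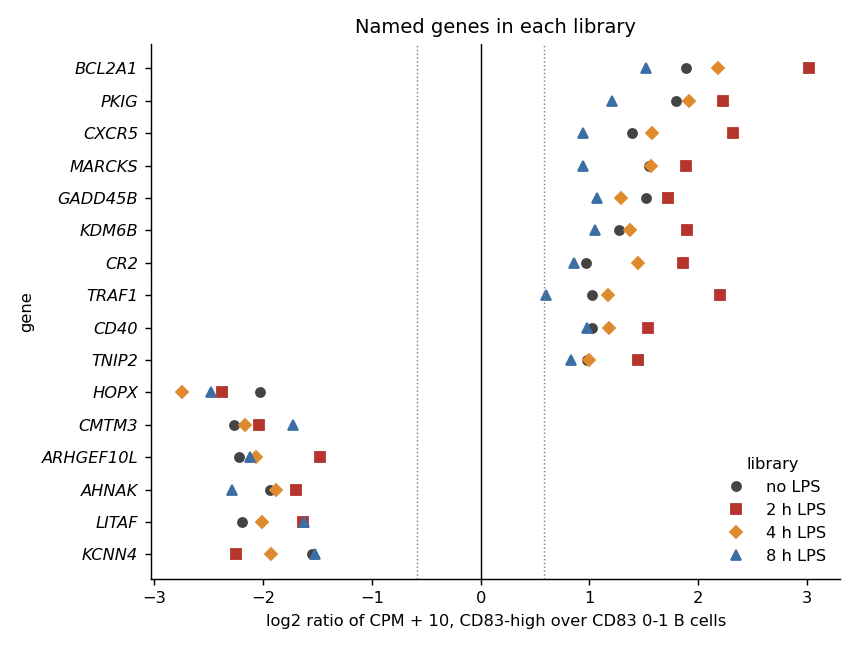
Log2 ratio of CPM + 10 of CD83-high over other B cells for the named genes with a symbol, 1 point per library; dotted lines mark 1.5-fold. The 10 upper genes lie right of the upper line and the 6 lower genes left of the lower line in each library, and the 2 h point is farthest right in each of the 10.

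The gene lists were described by counts and by the median of the mean log2 ratios, beside -0.12 for all genes tested. The shares of all genes tested that passed in every library were 0.541% higher and 3.47% lower. Against depth-matched cells they were 0.466% and 2.73%. Under TMM scaling they were 1.17% and 2.28%, and under DESeq2 scaling 1.16% and 2.36%. Of the activation and costimulation list, 2 of 12 measured genes were higher in every library (CD40 and the hyaluronan receptor CD44) and none lower, with a median of 0.51. CD44 no longer passed against depth-matched cells, and under TMM or DESeq2 scaling 4 of 12 passed. IL21R, the interleukin-21 receptor, stood at 24.9, 57.0, 49.2 and 31.8 CPM against 8.18, 15.8, 19.0 and 17.9 CPM and passed only against depth-matched cells. CD69, an early activation antigen, was not of 1 direction, at 18.4, 75.7, 57.2 and 22.7 CPM against 9.93, 95.1, 24.6 and 11.2 CPM. It was detected in 13 of 156, 178 of 924, 95 of 520 and 16 of 134 CD83-high cells, and in 36 of 1073, 67 of 698, 43 of 558 and 11 of 213 of the other B cells. The higher CPM of the other B cells after 2 h thus came from a smaller share of cells, also after thinning (6.38% against 10.7% of CD83-high cells), with 12.4% of the UMIs from 1 cell.

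Of the NF-kB list, 3 of 16 measured genes were higher in every library (REL, TRAF1 and TNFAIP3) and none lower, with a median of 0.62. Against depth-matched cells 2 passed, TNFAIP3 no longer, and under TMM or DESeq2 scaling 5 of 16 passed. The list was less separated after 8 h, when 3 of 16 genes passed 1.5-fold in that library alone, than without LPS and after 2 h and 4 h, when 9, 11 and 9 did. Over all genes tested, 3.26%, 5.14%, 3.76% and 2.3% passed 1.5-fold upwards and 8.85%, 15.1%, 10.9% and 10.3% downwards in the no LPS, 2 h, 4 h and 8 h library alone. TNFAIP3, the ubiquitin-editing enzyme A20 that limits NF-kB, stood at 31.4, 153, 86.7 and 51.8 CPM against 14.6, 64.0, 35.8 and 30.6 CPM.

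In the BCL2 family, BCL2A1 was the only member of 7 measured that passed. MCL1, another survival member, had nearly equal levels of 170, 252, 257 and 176 CPM against 186, 258, 271 and 203 CPM. BAX, a promoter of cell death, stood at 76.9, 59.7, 55.4 and 87.3 CPM against 103, 98.2, 90.98 and 115 CPM. The family's median of -0.10 turned to 0.04 under TMM and DESeq2 scaling, 0.24 with no minimum of UMIs and 0.16 without the upper limit on genes, so no direction is given for it.

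Of 9 measured genes of the homing list, 1 was higher in every library (CXCR5) and 2 were lower, among them ITGB7. ITGB7, an integrin chain of gut homing, stood at 22.7, 24.1, 8.64 and 8.18 CPM against 54.5, 43.8, 38.1 and 32.1 CPM, and did not pass under TMM or DESeq2 scaling. CCR7, which directs cells to lymph node T zones, was 1.51, 2.06, 1.47 and 1.25 times as high in CD83-high cells and did not pass in every library.

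Among 11 co-receptors and surface regulators of the B cell receptor, CR2 was higher and LY86, the partner of the Toll-like receptor homologue CD180, was lower in every library. LY86 stood at 105, 114, 76.3 and 117 CPM against 258, 243, 220 and 214 CPM. CD22, an inhibitory co-receptor, differed little, with a mean log2 ratio of -0.01. FCER2, the low-affinity IgE receptor CD23, was nearly equal without LPS (45.5 against 45.7 CPM) and stood at 114, 160.0 and 67.3 CPM against 61.8, 76.2 and 40.3 CPM after 2 h, 4 h and 8 h.

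In the B cell receptor signalling list 1 of 12 measured genes, the kinase SYK, passed, in the lower direction, at 67.2, 64.2, 68.8 and 67.3 CPM against 123, 154, 127 and 125 CPM. The median of the list was -0.47 and stayed below the median of all genes under TMM and DESeq2 scaling, at -0.32 and -0.33. None of 15 measured B cell transcription factors passed in either direction. IRF4, which is induced by B cell activation, stood at 50.9, 139.6, 62.6 and 39.1 CPM against 32.1, 64.6, 36.5 and 30.6 CPM.

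Of 7 measured genes of MHC class II and its regulators, none was higher and 2 were lower in every library. These were BOLA-DMB, a subunit of the peptide-loading chaperone, at 147, 159.8, 78.9 and 99.99 CPM against 314, 305, 201 and 221 CPM, and CIITA, the class II transactivator, at 22.7, 16.6, 20.3 and 30.0 CPM against 45.4, 37.6, 40.4 and 56.0 CPM. CIITA no longer passed against depth-matched cells. The chain BOLA-DRA itself differed less, with ratios of 0.749, 1.09, 0.892 and 0.789.

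Of 16 measured cell growth genes, the translation factors EIF5A and EIF4A1 were higher in every library and none was lower, with a median of 0.54. Against depth-matched cells neither passed. Under TMM or DESeq2 scaling 6 of 16 passed. None of 12 immediate early genes passed, and 2 passed under TMM or DESeq2 scaling. Among them MYC, a driver of cell growth, stood at 147, 234, 202 and 119 CPM against 98.1, 97.3, 86.4 and 72.4 CPM, and passed after depth matching.

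Of 11 measured cytokines and chemokines none passed in every library, and several rested on single cells. Against depth-matched cells, and under TMM or DESeq2 scaling, 1 passed, CCL22. CCL22, a chemokine that attracts T cells, had 21, 34, 78 and 76 UMIs in CD83-high cells against 5, 4, 4 and 0 in the other B cells, of which 66.7%, 70.6%, 39.7% and 32.9% came from 1 cell. CCL3, a macrophage chemokine, had 74.2% of its CD83-high UMIs without LPS in 1 cell. Of 4 measured plasma cell genes DERL3, a component of endoplasmic reticulum quality control, was lower in every library, though not under TMM scaling. JCHAIN, the joining chain of secreted antibody, stood at 57.4, 39.3, 41.1 and 49.9965 CPM in CD83-high cells against 228, 539, 548 and 54.5 CPM, and single cells gave 27.5%, 33.4%, 43.1% and 11.0% of the UMIs of the other B cells. Neither VPREB3 nor FCRLA, a B cell Fc receptor-like protein, passed. The median of the pair was -0.51, but the genes differed. After thinning, FCRLA was detected in 19.9%, 15.8%, 10.5% and 20.3% of CD83-high cells against 34.0%, 32.5%, 34.5% and 32.4% of the other B cells. VPREB3 was detected in 48.7%, 38.4%, 36.2% and 35.3% against 47.6%, 33.8%, 36.9% and 35.8%.

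Within the CD83-high cells, BCL2A1 was graded with the CD83 count. After 2 h it stood at 1531, 2599 and 4220 CPM in cells with 2 to 4, 5 to 9 and at least 10 CD83 UMIs, and after 4 h at 710, 1407 and 2029 CPM. After 8 h it stood at 391, 647 and 1148 CPM. Without LPS the upper classes were small (32 and 12 cells) and their levels were 1021 and 787 CPM, against 302 CPM in the 112 cells with 2 to 4 UMIs.

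CXCR5 was graded in the 4 libraries, at 106, 210 and 394 CPM without LPS, 174, 289 and 474 CPM after 2 h, 172, 246 and 332 CPM after 4 h and 146, 183 and 283 CPM after 8 h. CD40 after 2 h differed between the lowest class (505 CPM, 467 to 546) and the middle class (659 CPM, 620 to 700), but not between the middle and the highest (665 CPM, 633 to 698). Median depth rose over the same 3 classes, from 3650.5 to 4557 and 6513 UMIs after 2 h, so depth and CD83 level moved together here; their separate parts were not tested.

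Comparison of LPS times within the CD83-high class is a comparison of cells picked anew in each library, and the 3 comparisons share the library without LPS. After 2 h, 114 of 8015 genes with at least 20 UMIs (1.42%) were at least 2-fold higher than without LPS and 25 (0.312%) at least 2-fold lower. After 4 h the counts were 100 (1.33%) and 32 (0.426%) of 7520 genes, and after 8 h 25 (0.401%) and 29 (0.465%) of 6234. In B cells with 0 or 1 CD83 UMI the corresponding counts were 40 (0.451%) and 7 (0.079%) of 8866 genes, 68 (0.771%) and 16 (0.181%) of 8821, and 30 (0.352%) and 25 (0.293%) of 8525. Over all gated B cells, in which the shares of the classes also differed between libraries, the counts were 103 (1.09%) and 10 (0.106%) of 9463 genes, 92 (0.99%) and 38 (0.409%) of 9291, and 26 (0.293%) and 37 (0.417%) of 8874. The CD83-high class without LPS held 156 cells and 923143 UMIs, so its low genes were measured with wide counting error.

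After 2 h the genes that passed in CD83-high cells included 6 of 16 NF-kB genes: NFKB1, NFKBIA, NFKBIZ, TNFAIP3, BIRC3 and TRAF1. Of the other B cells' NF-kB genes 2 of 16 passed, NFKBIA and TNFAIP3. NFKBIZ, an atypical nuclear inhibitor of the NF-kB family, stood at 32.5 CPM without LPS and 149 CPM after 2 h in CD83-high cells, a ratio of 4.59 (3.19 to 6.85), and at 20.8 and 50.3 CPM in the other B cells, a ratio of 2.42 (1.88 to 3.12). After 4 h 1 of 16 passed (TNFAIP3), and after 8 h none passed upwards and NFKBID, another atypical inhibitor, was lower, at 71.8 against 195 CPM. The difference between the classes in these ratios was not tested.

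Of the markers given for these cells, CD40, BCL2A1 and CR2 returned toward the level without LPS by 8 h. In CD83-high cells the ratio to no LPS of CD40 was 4.62 (3.86 to 5.56) after 2 h, 2.45 (2.03 to 2.97) after 4 h and 1.25 (0.990 to 1.58) after 8 h. That of BCL2A1 was 6.03 (5.50 to 6.62), 2.5505 (2.32 to 2.81) and 1.08 (0.952 to 1.22). That of CR2 was 3.08 (2.20 to 4.44), 2.87 (2.04 to 4.16) and 1.28 (0.827 to 2.01). Of the activation and costimulation list, 4 of 13, 4 of 13 and 0 of 11 measured genes passed upwards in CD83-high cells after 2 h, 4 h and 8 h. In the other B cells 3 of 13, 2 of 13 and 1 of 13 passed. SLAMF1, a self-ligand receptor of lymphocytes, passed in CD83-high cells after 2 h and 4 h and in the other B cells at no time, with ratios of 6.31 (2.85 to 17.4) and 3.62 (1.59 to 10.2) against 1.76 (1.11 to 2.79) and 1.298 (0.779 to 2.14). Of the other lists, IRF4 and PRDM1, transcription factors of plasma cell differentiation, passed after 2 h in CD83-high cells.

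Of the cytokine list, TNF, IL6, CCL3, CCL4, CCL5 and CXCL10 passed after 2 h in CD83-high cells, 6 of 13 measured. In the other B cells 3 of 12 measured passed after 2 h. Over all genes tested after 2 h, 1.42% passed upwards in CD83-high cells and 0.451% in the other B cells. In CD83-high cells IL6 rested on 148 UMIs in 80 cells, no cell giving more than 8.78%, at 27.9 CPM against 5.42 without LPS. CCL4, by contrast, had 33.2% of its UMIs after 2 h in 1 cell. CXCL10, an interferon-induced chemokine, also passed after 4 h and 8 h, at 540 and 202 CPM against 78.0 CPM without LPS, where 50% of the UMIs came from 1 cell.

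Interferon-stimulated genes, the antiviral effectors switched on by type I interferon, passed in both classes after 4 h. In CD83-high cells 8 of 24 measured genes passed after 2 h, 20 of 25 after 4 h and 1 of 19 after 8 h. The counts in the other B cells were 2 of 23, 22 of 25 and 2 of 23. The medians of the log2 ratios to no LPS were 0.45, 2.02 and 0.34 in CD83-high cells and 0.34, 2.05 and 0.56 in the other B cells, beside medians of all genes between -0.03 and 0.05.

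ISG15, a ubiquitin-like modifier, stood at 132 CPM without LPS, 2703 after 2 h, 4575 after 4 h and 431 after 8 h in CD83-high cells, and at 159, 637, 3497 and 425 CPM in the other B cells. The ratio between the classes was 0.829 (0.680 to 1.004), 4.24 (4.05 to 4.45), 1.31 (1.28 to 1.34) and 1.013 (0.895 to 1.15). The classes were thus farthest apart after 2 h and close to each other without LPS and after 8 h. No cell gave more than 2.65% of the ISG15 UMIs of the CD83-high class after 2 h.

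IFIH1, the RNA sensor MDA5, stood at 49.8, 279, 322 and 51.8 CPM in CD83-high cells and 51.0, 78.3, 242 and 88.1 CPM in the other B cells. MX1, an antiviral GTPase, stood at 120, 456, 878 and 192 CPM and 146, 234, 765 and 242 CPM. Both genes were again higher in CD83-high cells after 2 h and closer together after 4 h. RSAD2, the antiviral enzyme viperin, had no UMI in CD83-high cells without LPS, which allows up to 3.25 CPM, and stood at 23.3 CPM after 2 h and 75.4 CPM after 4 h, at least 7.18-fold and 23.2-fold higher on a floor of 3 UMIs. At 2 h 31.5% of its UMIs came from 1 cell.

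MX2, a relative of MX1, and IFI6, a mitochondrial interferon-induced protein, were the 2 list members lower in CD83-high cells in every library; MX2 did not pass under TMM or DESeq2 scaling. They stood at 70.4, 110, 624 and 124 CPM and at 69.3, 93.9, 226 and 124 CPM in CD83-high cells. Their levels in the other B cells were higher: MX2 stood at 133, 186, 964 and 249 CPM and IFI6 at 161, 181, 447 and 249 CPM. Both had their highest level after 4 h in either class, and neither passed 2-fold after 2 h.

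**Figure D5:**
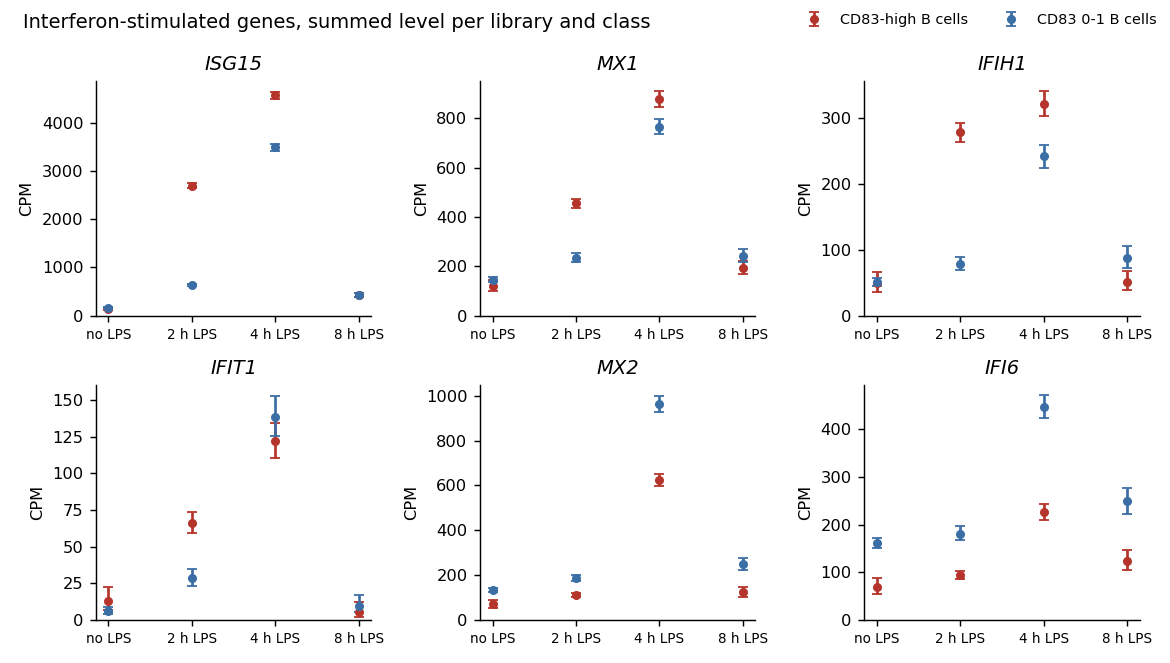
Summed level in CPM of ISG15, MX1, IFIH1, IFIT1, MX2 and IFI6 in each library for CD83-high B cells (red) and B cells with 0 or 1 CD83 UMI (blue); error bars are exact 95% Poisson intervals. The first 4 genes are higher in CD83-high cells after 2 h, while MX2 and IFI6 are lower in CD83-high cells in each library, and the 6 genes are highest after 4 h in both classes.

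By the size of the ratio to no LPS among genes with at least 50 UMIs, the highest after 2 h were ISG15, PLEK and 3 genes without a symbol, of which ENSBTAG00000048135 had 91.8% of its UMIs in 1 cell. PLEK, a protein kinase C substrate of blood cells, stood at 185 CPM after 2 h against 19.5 CPM without LPS. After 4 h the highest were ISG15, RSAD2, 2 genes without a symbol and IFIT2, an interferon-induced RNA-binding protein, which stood at 124 against 6.50 CPM, a ratio of 19.1 (8.71 to 52.4).

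After 8 h the highest were ISG15, TUBB, IL1RN, PYCR1 and IARS1. TUBB, a tubulin chain, stood at 156 against 47.7 CPM and IL1RN, the interleukin-1 receptor antagonist, at 83.6 against 22.7 CPM, with 35.9% of the UMIs after 8 h from 1 cell. PYCR1, an enzyme of proline synthesis, stood at 42.7 against 9.75 CPM, a ratio of 4.38 (2.12 to 10.2), and IARS1, an aminoacyl-tRNA synthetase, at 39.1 against 8.67 CPM, a ratio of 4.51 (2.10 to 11.1). In the other B cells PYCR1 had a ratio of 6.90 (3.54 to 14.0) and IARS1 of 1.64 (1.12 to 2.38).

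The lowest gene after 2 h was IDO1, an enzyme of tryptophan breakdown, with 37 UMIs without LPS, of which 75.7% came from 1 cell. RASSF5, a Ras effector that supports integrin adhesion, stood at 83.4, 25.6, 32.5 and 53.6 CPM in CD83-high cells without LPS and after 2 h, 4 h and 8 h, and at 104, 96.0, 96.2 and 85.1 CPM in the other B cells. PRKAR2B, a regulatory subunit of protein kinase A, stood at 85.6, 26.5, 15.2 and 50.9 CPM, and TPGS1, a subunit of the tubulin polyglutamylase, at 48.7, 12.6, 18.8 and 25.5 CPM. These 3 genes were lowest in CD83-high cells after 2 h or 4 h and higher again after 8 h. NR4A1, an orphan nuclear receptor induced by antigen receptor signals, was highest without LPS, at 55.2, 29.9, 11.6 and 6.36 CPM against 3.31, 6.53, 3.28 and 2.24 CPM in the other B cells, with 27.5% of the UMIs without LPS from 1 cell.

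CCL2, a monocyte chemokine, stood at 153, 176, 12.2 and 62.7 CPM in CD83-high cells, and 68.0% of its UMIs after 2 h came from 1 cell. LGALS3, the lectin galectin-3, stood at 47.7, 14.1, 3.57 and 16.4 CPM, with 45.5% of the UMIs without LPS from 1 cell. CDKN1A, a cell cycle inhibitor, NFKBID and PHACTR1, a phosphatase and actin regulator, were with NR4A1 and a gene without a symbol the lowest after 8 h; PHACTR1 stood at 56.3 CPM without LPS and 17.3 CPM after 8 h. CDKN1A was at 57.4 CPM without LPS, 139 after 2 h and 12.7 after 8 h, so it was both above and below the level without LPS.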

How the data were processed

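RNA of single blood mononuclear cells was measured in 4 droplet libraries, 1 per treatment, from 1 pool of blood. Per the labels, the authors made the deposited UMI counts (per gene and barcode) with Cell Ranger against a cattle genome, ARS-UCD1.2 in the submitters' processing notes; these tables hold 21861 genes, 5070 of them without a symbol. Chromatin accessibility files were not used here.

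UMIs were summed per library and class, CPM were computed from these sums, and ratios were taken as log2 of CPM + 10. A gene was called between the classes at 1.5-fold or more in 4 of 4 libraries (at least 200 UMIs over the 8 sums, genes of the gate left out), and against no LPS at 2-fold or more (at least 20 UMIs over both libraries). With 1 library per treatment no test was made; binomial, Poisson and ratio intervals are exact, at 95%, and cover counting error only. Folds in the text are ratios of CPM. Depth matching weighted the cells with 0 or 1 CD83 UMI to the CD83-high cells over 5 bins of UMIs per cell. The genes named were the 10 highest and 10 lowest called genes by mean ratio, and the 5 highest and 5 lowest at each LPS time within CD83-high cells among genes with at least 50 UMIs over both libraries, beside the gene lists; exceptions are stated. The members, lists and rules were chosen with earlier results of these data known. No doublet caller was run; barcodes with CD3E or CD14 UMIs or over 3000 genes were left out, and a stricter exclusion was an alternative. Alternatives included TMM factors (edgeR 4.0.16) and size factors (DESeq2 1.42.0). The scripts, in Python 3.11.15, were tested on simulated data. Some genes of the lists are counted but not reported here by name.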

Additional observations from a re-analysis of the deposited data

Results flagged for a closer look

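IDO1, an enzyme of tryptophan breakdown, moved in opposite directions in the 2 classes of B cells at each LPS time. In CD83-high cells its log2 ratio to no LPS was -1.79 after 2 h, -0.70 after 4 h and -1.32 after 8 h. In B cells with 0 or 1 CD83 UMI it was 0.73, 1.11 and 1.40. The CD83-high level without LPS rested on 37 UMIs in 4 cells, of which 75.7% came from 1 cell. The difference was not tested.

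S100A8, a calcium-binding protein of myeloid cells, also moved in opposite directions after 8 h, with a log2 ratio of 0.88 in CD83-high cells, from 4 UMIs without LPS, and -2.81 in B cells with 0 or 1 CD83 UMI. In the latter, 50.6% of the 1167 UMIs without LPS came from 1 cell. The difference was not tested.

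Barcodes with over 3000 genes that otherwise met the B cell gate were outside the comparisons, and their share with at least 2 CD83 UMIs was above that without LPS. It was 48.5% of 68 barcodes after 2 h (exact 95% interval 36.2 to 61.0%), 60% of 75 after 4 h (48.0 to 71.1%) and 62.2% of 74 after 8 h (50.1 to 73.2%), against 34.5% of 55 without LPS (22.2 to 48.6%). The intervals after 2 h and after 4 h overlapped that without LPS.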

How the results depend on the processing

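The shares of CD83-high cells without LPS and after 2 h, 4 h and 8 h were 27.9%, 68.7%, 64.0% and 55.0% at a limit of 1 CD83 UMI, 8.06%, 48.8%, 39.6% and 28.2% at a limit of 3, and 6.63%, 41.9%, 29.2% and 14.2% in cells thinned to 2000 UMIs; 2 h was highest and no LPS lowest under each. No upper limit on genes, a limit on mitochondrial UMIs, 1 UMI of CD79A and CD79B and the stricter exclusion of mixed barcodes gave 12.6% to 13.6%, 56.5% to 58.9%, 48.2% to 50.7% and 38.6% to 42.8%.

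Genes higher in CD83-high cells in every library numbered 36, and 62 against cells without CD83 UMIs, 77 with DESeq2 size factors, 59 without the upper limit on genes, and 92 without the 8 h library, when fewer libraries had to pass. Genes lower numbered 231, and 121 at a minimum of 1000 UMIs. Higher and lower genes were 75 and 364 with a pseudocount of 1 CPM, 11 and 59 with 50 CPM, and 78 and 152 with TMM factors.

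Against no LPS, a pseudocount of 1 CPM gave 379 higher and 314 lower genes after 2 h, 321 and 234 after 4 h, and 133 and 125 after 8 h, and 50 CPM gave 34 and 0, 35 and 2, and 2 and 1; a larger pseudocount shrinks the ratios of low genes. At a minimum of 100 UMIs 17 genes were lower after 4 h, and 8 were higher and 2 lower after 8 h. With at least 3 CD83 UMIs 44 genes were lower after 2 h and 38 higher after 8 h. Without the upper limit on genes 61 were lower after 4 h, and 50 were higher and 109 lower after 8 h. For the counts that moved with the definition of the class or the upper limit on genes the cause was not tested.

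Leaving out the no LPS, 2 h or 4 h library, or each gene's top cell, was chosen after seeing the data. The libraries left out gave 41 to 52 higher and 233 to 283 lower genes, and the top cells left out gave 33 and 265 between the classes and 13 lower genes after 2 h. No gene among the 10 highest and 10 lowest called between the classes turned its direction under the alternatives tried. Directions of the other named genes, and of single-gene ratios to no LPS, were not followed through all of these alternatives. The median of the BCL2 family turned under TMM and DESeq2 scaling, with no minimum of UMIs and without the upper limit on genes. No paired analysis was possible because each treatment had 1 RNA library, with no replicate. Depth limits the class without LPS most: with 156 cells, a count of 0 allows up to 3.25 CPM.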

Other observations

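Among barcodes with at least 2 CD14 UMIs and no UMI of CD3E, MS4A1, CD79A or CD79B, the share with at least 2 CD83 UMIs was 12.9% of 683 without LPS, 30.0% of 297 after 2 h, 30% of 120 after 4 h and 27.1% of 59 after 8 h. These barcodes had a median of 9671 to 12582 UMIs.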
